A study of Mus musculus with 8 samples.

Results

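The phagocyte NADPH oxidase was followed at the transcript level through 5 subunit genes, Cybb, Cyba, Ncf1, Ncf4 and Rac2. They were taken by gene symbol from a table of 24421 genes, and all 5 were found, tested and read at 2408 counts or more in every library. The choice used no measured value of this experiment, although it was made with earlier results of these data known. The cells were mouse haematopoietic stem and progenitor cells (HSPCs) recovered from primary transplant recipients, in 4 groups of 2 libraries. Of these groups 3 are labelled as double knockouts (dKO), and the series title names beta-catenin (Ctnnb1) and Hoxa9. The dKO cells carried wild-type PRMT1 (dKOPRMT), a PRMT1 without enzymatic activity (dKOMut) or an empty vector (dKOEV), and wild-type cells with an empty vector (WTEV) were the control. PRMT1 is the main enzyme of asymmetric arginine dimethylation. All 4 groups were therefore vector-transduced and transplanted cells. The source label names dKO cells for all 8 libraries, so the WTEV group rests on title and genotype label. The labels and files do not state the animals' age or strain, how the genes were deleted, the promoter of the vector or any pooling of animals.

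The oxidase makes superoxide by passing electrons from NADPH across the membrane to oxygen, and is the source of the respiratory burst with which neutrophils and macrophages kill microbes. Its membrane core is a heterodimer of the catalytic subunit encoded by Cybb and the stabilising subunit encoded by Cyba. On activation cytosolic subunits, among them the organiser encoded by Ncf1 and the accessory subunit encoded by Ncf4, move to this core together with the small GTPase encoded by Rac2. Loss of the catalytic, stabilising or cytosolic subunits causes chronic granulomatous disease in humans, and the genes are switched on as myeloid progenitors mature. In human myeloid cells HOXA9 has been described as an activator of CYBB transcription, which makes these genes of interest in cells that lack Hoxa9.

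The libraries held 15531344 to 22329749 counts, 12744 genes were tested, and levels of single genes are given as TMM-scaled CPM. Changes are on the log2 scale with their standard error (n = 2 per group). A gene is said to rise, to fall or to be called where its p, adjusted by Benjamini-Hochberg over all tested genes, was under 0.05 in the quasi-likelihood test of edgeR. Nothing in the labels says that replicates came from separate animals, and the p-values may reflect technical spread alone. Prmt1 itself stood at 980 and 975 CPM in dKOPRMT and 1744 and 1758 CPM in dKOMut, against 190 and 194 CPM in dKOEV and 188 and 192 CPM in WTEV. Enzymatic activity and Prmt1 level therefore cannot be told apart in dKOPRMT vs dKOMut. The genotype label of dKOMut replicate 2 names PRMT2, but both dKOMut libraries were grouped by their titles. Hoxa9 had 3.76 and 1.87 CPM in dKOPRMT, 4.85 and 1.95 in dKOMut and 5.79 and 3.63 in dKOEV, against 18.2 and 17.2 in WTEV. Ctnnb1 was still read at 372 and 370 CPM in dKOPRMT, 360 and 368 in dKOMut and 390 and 379 in dKOEV, against 444 and 455 in WTEV, and fell by only 0.23 ± 0.04 on the log2 scale in dKOEV vs WTEV (adjusted p = 6.5e-05). The labels do not say which part of the gene was deleted, and a count over all exons cannot show a missing part, so the loss of Ctnnb1 was not shown by these counts and dKO is used here as the label gives it. Xist was read only in WTEV (159 and 121 CPM) and the Y-linked gene Ddx3y only in the 6 dKO libraries (58.2 to 68.4 CPM), so dKO genotype and sex cannot be told apart. This bears on every comparison with WTEV and in particular on Cybb, which is X-linked. Of 422 tested X chromosome genes 15.6% were called in dKOEV vs WTEV, close to the 15.4% of all tested genes. By direction 5.69% of the X chromosome genes were higher and 9.95% lower there, against 8.44% and 7% of all tested genes. In dKOMut vs WTEV the X chromosome shares were 8.77% and 9.72%, against 9.41% and 9.97%. In dKOPRMT vs WTEV they were 8.06% and 12.6%, against 11% and 12.2%. The part of sex in the Cybb changes was not tested.

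The label of these cells as HSPCs was set against marker levels. Cd34 was read at 108 and 105 CPM in dKOPRMT, 148 and 144 in dKOMut, 128 and 122 in dKOEV and 160 and 162 in WTEV, and Kit at 137 to 171 CPM over all 8 libraries. Granulocyte transcripts were present as well, with myeloperoxidase (Mpo) at 9078 and 9061 CPM in dKOPRMT, 7732 and 8028 in dKOMut, 6134 and 6206 in dKOEV and 5920 and 5782 in WTEV. The macrophage receptor Csf1r was present too, at 399 and 387 CPM in dKOPRMT, 359 and 353 in dKOMut, 464 and 483 in dKOEV and 539 and 524 in WTEV. The libraries thus held transcripts of the granulocytic and monocytic lineages, in which the oxidase is found. How mature these cells were cannot be read from Mpo and Csf1r alone. In such bulk libraries a change in the number of expressing cells and a change in transcript per cell cannot be told apart.

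The promoters of Cybb, Cyba and Ncf1, the 3 of the 5 genes matched in the table used, are shown for the letters around their starts. They are RefSeq sequences (GRCm38.p6) and run from 250 bases before to 50 bases after the start of the gene, 5′ to 3′ on the gene's own strand. Capitals mark matches on either strand to the core site GAGGAA of the myeloid factor PU.1, to the CCAAT box and to the interferon-response pattern of 2 copies of GAAA in the same direction with any 2 bases between them. The Cybb promoter lies at chrX:9469275-9469574, the Ncf1 promoter at chr5:134229576-134229875 and the Cyba promoter at chr8:122432891-122433190, all on the minus strand. The Cybb start is the one of the deposited annotation (9469324), while the RefSeq span of the gene reaches further upstream, to 9487766.
Cybb: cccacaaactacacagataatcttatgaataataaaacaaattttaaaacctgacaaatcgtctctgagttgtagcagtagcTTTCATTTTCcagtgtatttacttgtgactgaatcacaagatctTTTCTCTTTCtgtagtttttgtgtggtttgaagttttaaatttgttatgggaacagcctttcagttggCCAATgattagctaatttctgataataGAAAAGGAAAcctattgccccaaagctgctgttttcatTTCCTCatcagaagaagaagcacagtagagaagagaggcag
Ncf1: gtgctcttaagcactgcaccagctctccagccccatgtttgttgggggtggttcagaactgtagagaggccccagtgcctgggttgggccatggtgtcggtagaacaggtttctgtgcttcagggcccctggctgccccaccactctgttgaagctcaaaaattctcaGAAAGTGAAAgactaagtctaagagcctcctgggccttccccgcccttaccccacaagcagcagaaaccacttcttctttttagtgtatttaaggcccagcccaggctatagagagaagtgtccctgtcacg
Cyba: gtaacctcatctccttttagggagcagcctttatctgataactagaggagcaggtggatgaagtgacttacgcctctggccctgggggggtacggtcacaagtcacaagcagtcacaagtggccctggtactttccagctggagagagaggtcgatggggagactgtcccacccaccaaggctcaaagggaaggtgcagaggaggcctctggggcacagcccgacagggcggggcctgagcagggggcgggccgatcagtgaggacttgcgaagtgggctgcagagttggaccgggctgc
In Cybb the PU.1 core stood 10 to 15 bases after the start and the CCAAT box 56 to 52 bases before it. The interferon-response pattern was found 3 times in Cybb, beginning 168, 124 and 29 bases upstream, and at 1 place in Ncf1, 82 to 73 bases upstream. None of the 3 motifs matched in the 300 bases of Cyba. Among all 32851 promoters of this length 28.3% held the PU.1 core, 37.4% the CCAAT box and 3.44% the interferon-response pattern. The CCAAT box and the interferon-response pattern were added after the values were seen, and a match is a description of the letters, not a site of binding.

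All 5 genes were among the abundant transcripts of these cells. Levels of different genes were compared as TPM, in which counts are divided by the deposited exon length and scaled to the same total in each library. Cyba, whose exons span only 759 bases, led with a mean of 1119 TPM over the 8 libraries and ranked 138th of 12744 tested genes. Ncf1 (363 TPM), Rac2 (352 TPM) and Cybb (340 TPM) were close together, at ranks 374, 387 and 411, and Ncf4 was lowest with 218 TPM at rank 702, still above 94.5% of tested genes. The ranges over the 8 libraries were 300 to 414 TPM for Ncf1, 299 to 397 for Rac2 and 313 to 369 for Cybb, so the order of these 3 was not fixed. Cyba at 1016 to 1230 TPM stood apart from the other 4. The other NADPH oxidases were nearly silent. Of the 9 genes for Nox1, Nox3, Nox4, the dual oxidases and their organisers only 1 reached the level for testing, it was called in no comparison, and the 9 together came to 0.851 to 1.86 CPM in a library. Nox4, the oxidase of kidney and vessel wall, had 0 counts in all 8 libraries.

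Cybb, the electron-transferring subunit gp91phox (chromosome X, 9435254 to 9469324, minus strand, 13 merged exons), was highest in dKOMut and differed little between the other groups. It stood at 814 and 843 CPM in dKOPRMT, 896 and 875 in dKOMut, 791 and 809 in dKOEV and 783 and 761 in WTEV. The dKOMut libraries lay above all 6 others, and the libraries of dKOPRMT, dKOEV and WTEV lay close together without overlap. Cybb rose by 0.15 ± 0.03 in dKOMut vs dKOEV (1.11-fold, adjusted p = 0.00329) and by 0.20 ± 0.03 in dKOMut vs WTEV (adjusted p = 3.5e-05). The rise of 0.10 ± 0.03 in dKOPRMT vs WTEV passed narrowly (adjusted p = 0.0319). No change was called in dKOEV vs WTEV, at 0.05 ± 0.04 with a 95% interval of 0.986 to 1.09 for the fold change. Nor was one called in dKOPRMT vs dKOEV, at 0.05 ± 0.03 (interval 0.985 to 1.09). The direct comparison of dKOPRMT with dKOMut gave -0.10 ± 0.03, short of the threshold at adjusted p = 0.148 (interval 0.890 to 0.982). A difference in Cybb between the groups with active and dead enzyme was thus not shown. The dKOMut vs dKOEV call was lost without dKOMut replicate 1 (0.13, adjusted p = 0.0659), and the dKOPRMT vs WTEV call without any of its 4 libraries (0.08 to 0.13, adjusted p = 0.0545 to 0.307).

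Cyba, the stabilising partner p22phox (chromosome 8, 122424771 to 122432940, minus strand, 6 merged exons), was lower with either PRMT1 insert than in dKOEV. Its levels were 432 and 433 CPM in dKOPRMT, 433 and 424 in dKOMut, 463 and 473 in dKOEV and 401 and 394 in WTEV. Here dKOEV was the highest group, WTEV the lowest, and the libraries with the active and the dead insert overlapped. Cyba rose in dKOEV vs WTEV by 0.23 ± 0.04 (1.18-fold, adjusted p = 2.5e-05). It fell in dKOPRMT vs dKOEV by 0.11 ± 0.04 on the log2 scale (adjusted p = 0.0435), and dKOMut vs dKOEV gave -0.13 ± 0.04 (adjusted p = 0.0266). Both groups remained higher than WTEV, by 0.12 ± 0.04 in dKOPRMT (adjusted p = 0.0192) and 0.11 ± 0.04 in dKOMut (adjusted p = 0.0458). Between dKOPRMT and dKOMut the difference was 0.01 ± 0.04 (adjusted p = 0.94), with an interval of 0.956 to 1.07 for the fold change. The 4 smaller Cyba changes were close to the threshold. Each lost its call without some single library, at an adjusted p of up to 0.197 for dKOPRMT vs dKOEV, 0.18 for dKOMut vs dKOEV, 0.177 for dKOPRMT vs WTEV and 0.278 for dKOMut vs WTEV, whereas dKOEV vs WTEV was called without each library in turn.

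**Figure D1:**
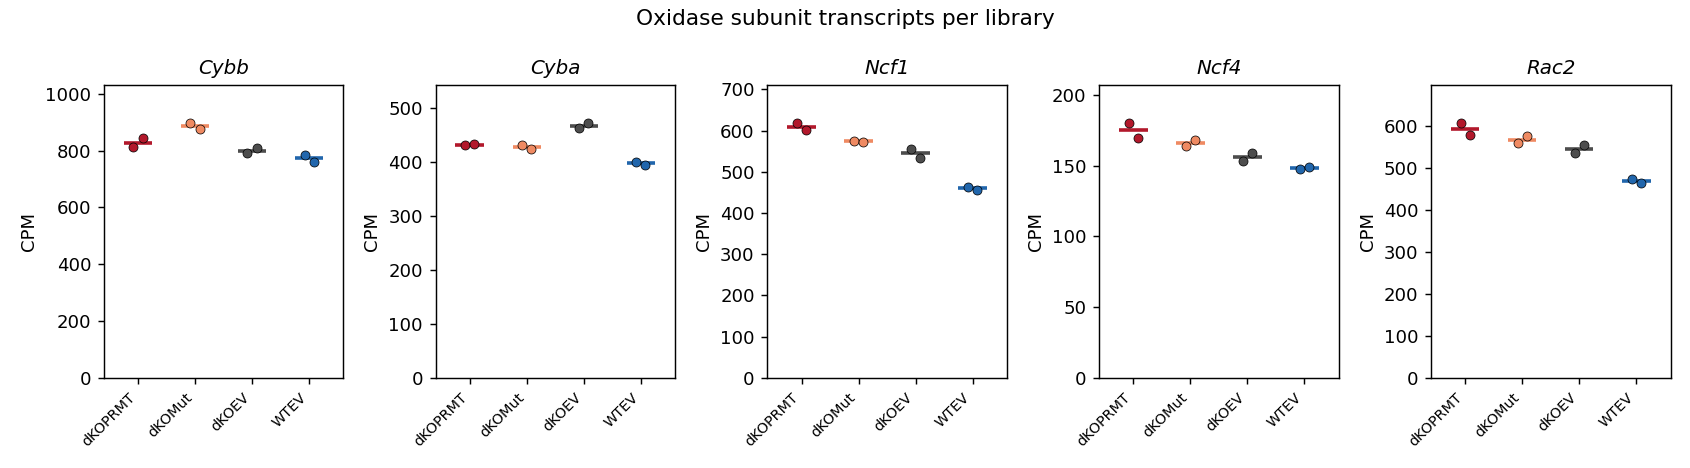
Each point is 1 library, each bar the mean of 2, and the y axis gives CPM for the 5 subunit genes in dKOPRMT, dKOMut, dKOEV and WTEV, from left to right. Ncf1, Ncf4 and Rac2 are highest in dKOPRMT and lowest in WTEV, Cybb is highest in dKOMut (875 and 896 CPM) and Cyba is highest in dKOEV (463 and 473 CPM).

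Ncf1 encodes the organiser p47phox, whose phosphorylation starts assembly of the complex (chromosome 5, 134220053 to 134229625, minus strand, 12 merged exons). It had the widest spread of the 5. It was read at 618 and 602 CPM in dKOPRMT, 576 and 573 in dKOMut, 556 and 534 in dKOEV and 464 and 455 in WTEV. The 4 groups formed a stepwise order with no overlap between neighbours. The step between dKOEV and WTEV was the one neighbouring step that was called, at 0.25 ± 0.04 (1.19-fold, adjusted p = 7.1e-06). The next 2 were smaller and not called, with 0.08 ± 0.04 in dKOMut vs dKOEV (adjusted p = 0.214) and 0.09 ± 0.04 in dKOPRMT vs dKOMut (adjusted p = 0.271). Over both steps Ncf1 rose by 0.16 ± 0.04 in dKOPRMT vs dKOEV (1.12-fold, adjusted p = 0.00181). Against WTEV it rose by 0.41 ± 0.04 in dKOPRMT (1.33-fold, adjusted p = 5.5e-11) and by 0.32 ± 0.04 in dKOMut (adjusted p = 1.6e-08). The dKOPRMT vs dKOEV call was lost without dKOPRMT replicate 1 (0.14, adjusted p = 0.0626).

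Ncf4 encodes p40phox, which binds phosphatidylinositol 3-phosphate on phagosomes (chromosome 15, 78244811 to 78262580, plus strand, 10 merged exons). It followed the same order at a lower level. Ncf4 had 180 and 170 CPM in dKOPRMT, 164 and 168 in dKOMut, 153 and 159 in dKOEV and 148 and 149 in WTEV. The groups again did not overlap, but no neighbouring step was called: dKOPRMT vs dKOMut gave 0.08 ± 0.05 (adjusted p = 0.587), dKOMut vs dKOEV 0.09 ± 0.05 (adjusted p = 0.334) and dKOEV vs WTEV 0.07 ± 0.05 (adjusted p = 0.422, log2 interval -0.04 to 0.18). Ncf4 rose by 0.17 ± 0.05 in dKOPRMT vs dKOEV (adjusted p = 0.0297), by 0.24 ± 0.05 in dKOPRMT vs WTEV (1.18-fold, adjusted p = 0.00072) and by 0.16 ± 0.05 in dKOMut vs WTEV (adjusted p = 0.0285). The first call was lost without dKOPRMT replicate 1 (0.12, adjusted p = 0.308) or dKOEV replicate 1 (0.14, adjusted p = 0.115), and the last without any of its 4 libraries (adjusted p = 0.0642 to 0.17).

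Rac2 encodes the haematopoietic Rac GTPase that switches the assembled complex on and also steers actin in migrating leukocytes. It lies on the same chromosome as Ncf4 (chromosome 15, 78559169 to 78572783, minus strand, 7 merged exons). Rac2 was read at 606 and 577 CPM in dKOPRMT, 558 and 575 in dKOMut, 535 and 554 in dKOEV and 474 and 465 in WTEV. The groups kept the order of Ncf1 and Ncf4, and the nearest libraries of neighbouring dKO groups were only a few CPM apart. Rac2 rose by 0.21 ± 0.04 in dKOEV vs WTEV (1.16-fold, adjusted p = 8.5e-05), by 0.27 ± 0.04 in dKOMut vs WTEV (adjusted p = 8.0e-07) and by 0.33 ± 0.04 in dKOPRMT vs WTEV (1.26-fold, adjusted p = 1.0e-08). In dKOPRMT vs dKOEV it rose by 0.12 ± 0.04 (adjusted p = 0.0293), and neither dKOMut vs dKOEV (0.06 ± 0.04, adjusted p = 0.394) nor dKOPRMT vs dKOMut (0.06 ± 0.04, adjusted p = 0.521) was called. The dKOPRMT vs dKOEV call was lost without dKOPRMT replicate 1 (0.08, adjusted p = 0.352) or dKOEV replicate 1 (0.09, adjusted p = 0.149).

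Counted over the 5 genes, 3 rose and 0 fell in dKOEV vs WTEV, where 8.44% of all tested genes were called higher and 7% lower. In dKOMut vs WTEV 5 rose, against 9.41% of all genes called higher and 9.97% lower, and in dKOPRMT vs WTEV 5 rose, against 11% called higher and 12.2% lower. Within the dKO cells 1 rose and 1 fell in dKOMut vs dKOEV (4.24% and 7.08% of all genes), and 3 rose and 1 fell in dKOPRMT vs dKOEV (5.96% and 8.67%). In dKOPRMT vs dKOMut 0 of 5 were called, against 3.11% of all genes in either direction. At an unadjusted p under 0.05 Cybb and Ncf1 passed there, and DESeq2 and limma voom called 0 as well. The calls depend on abundance. The mean was at least 100 CPM for 2412 genes, a level that all 5 subunits exceed. Of these genes 13.6% were called higher in dKOEV vs WTEV, 17.5% in dKOMut vs WTEV and 21.1% in dKOPRMT vs WTEV. Within the dKO cells 11.7% were higher and 11.6% lower in dKOMut vs dKOEV, and 14.8% and 12.1% in dKOPRMT vs dKOEV. In dKOPRMT vs dKOMut 8.25% were called in either direction. The median log2 fold change of the 5 was 0.21 in dKOEV vs WTEV, 0.20 in dKOMut vs WTEV and 0.24 in dKOPRMT vs WTEV, beside 0.00 over all tested genes in each. Every change was small: the most extreme fold changes were 1.33 (Ncf1, dKOPRMT vs WTEV) and 0.916 (Cyba, dKOMut vs dKOEV). Comparisons with the same control share its 2 libraries and are not independent.

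**Figure D2:**
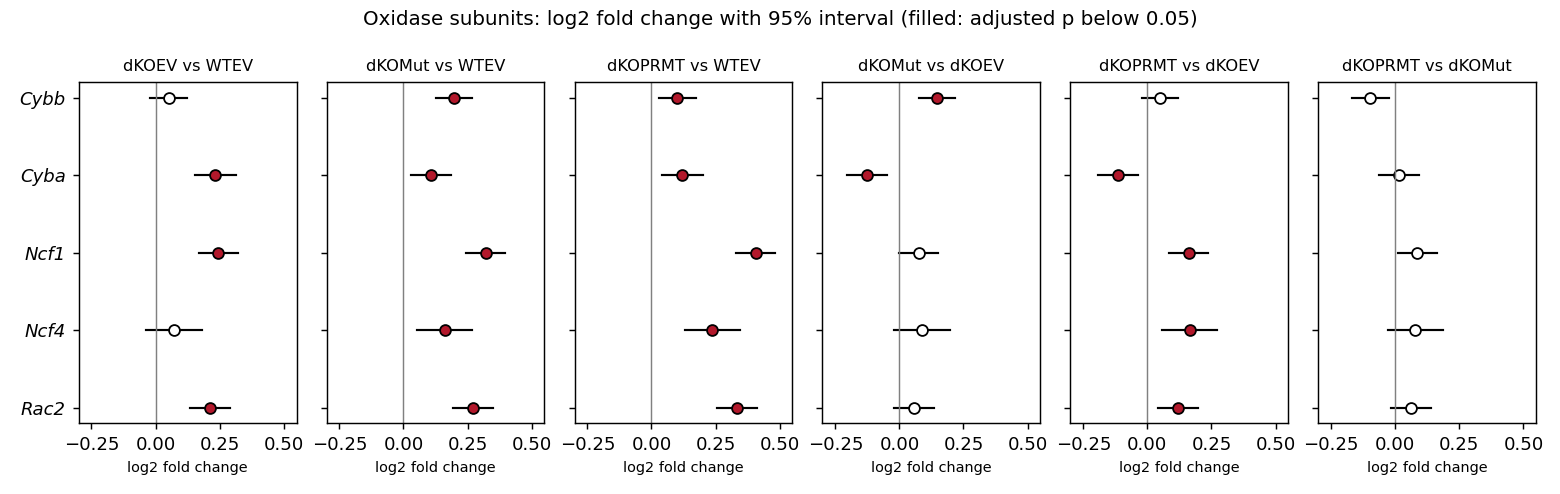
Log2 fold changes with 95% intervals for the 5 subunit genes in 6 comparisons, with filled points for adjusted p under 0.05 in edgeR. All filled points in the 3 comparisons with WTEV lie right of 0, Cyba is left of 0 when either PRMT1 insert is set against dKOEV, and the panel for dKOPRMT vs dKOMut has no filled point.

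Levels of the binding partners Cybb and Cyba, and of the related GTPase genes Rac2 and Rac1, were compared as ratios of TPM. These ratios are descriptions with no test. The catalytic to stabilising ratio, Cybb over Cyba, was 0.301 and 0.311 in dKOPRMT, 0.331 and 0.330 in dKOMut, 0.273 and 0.274 in dKOEV and 0.312 and 0.308 in WTEV. It was lowest in dKOEV and highest in dKOMut, while dKOPRMT overlapped WTEV. Rac2 over Rac1, its ubiquitous relative, was 0.988 and 0.987 in dKOPRMT, 0.890 and 0.962 in dKOMut, 0.875 and 0.909 in dKOEV and 0.820 and 0.770 in WTEV. This ratio was lowest in WTEV and near 1 in dKOPRMT.

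**Figure D3:**
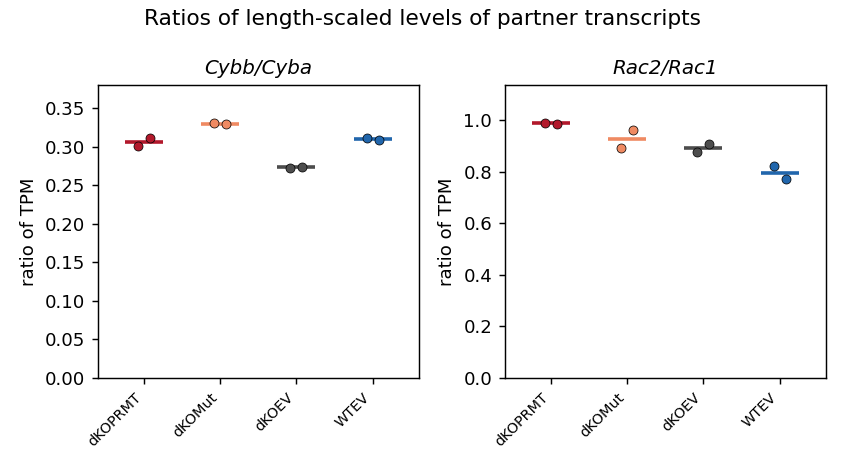
Ratios of TPM for the binding partners Cybb and Cyba and for the related genes Rac2 and Rac1. There is 1 point per library and a bar for the mean of 2, in dKOPRMT, dKOMut, dKOEV and WTEV from left to right. Cybb over Cyba is lowest in dKOEV (0.273 and 0.274) and Rac2 over Rac1 is lowest in WTEV (0.820 and 0.770).

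Partners outside the 5 genes were followed as well. Hvcn1, the proton channel that balances the oxidase's charge, changed more than the subunits, with 130 and 134 CPM in dKOPRMT, 119 and 132 in dKOMut, 99.4 and 111 in dKOEV and 84.8 and 82.7 in WTEV. It rose in dKOEV vs WTEV (0.33 ± 0.07, adjusted p = 0.000431), in dKOMut vs dKOEV (0.25 ± 0.07, adjusted p = 0.00889) and in dKOPRMT vs dKOEV (0.32 ± 0.07, adjusted p = 0.000437), and in dKOPRMT vs WTEV by 0.66 ± 0.07. Its exons overlap those of Tctn1, so part of its count is uncertain. Rap1b, a GTPase related to the Rap1a that copurifies with the human flavocytochrome, was not called in dKOEV vs WTEV (0.04 ± 0.04, adjusted p = 0.613). It fell in dKOPRMT vs dKOEV by 0.29 ± 0.04 on the log2 scale and in dKOMut vs dKOEV by 0.32 ± 0.04 (adjusted p = 2.0e-06 and 4.9e-07). Rac1, Rap1a and BC017643, the mouse gene for a chaperone of the catalytic core, were called in no comparison, with log2 fold changes between -0.10 and 0.12.

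The supply of NADPH, the substrate of the enzyme, was followed through 9 genes. The first enzyme of the pathway, G6pdx, had 465 and 464 CPM in dKOPRMT, 435 and 440 in dKOMut, 365 and 401 in dKOEV and 349 and 355 in WTEV. It is X-linked like Cybb, and rose in dKOPRMT vs dKOEV by 0.28 ± 0.04 (adjusted p = 5.4e-06) and in dKOMut vs dKOEV by 0.19 ± 0.04 (adjusted p = 0.00151). Phosphogluconate dehydrogenase (Pgd) rose in dKOPRMT vs dKOEV by 0.18 ± 0.04 and in dKOPRMT vs dKOMut by 0.14 ± 0.04 (adjusted p = 0.0005 and 0.0162). Transketolase (Tkt) rose by 0.16 ± 0.03 in dKOPRMT vs dKOEV and by 0.10 ± 0.03 in dKOMut vs dKOEV. Outside this pathway, the NAD kinase gene Nadk rose (0.17 ± 0.05, adjusted p = 0.00864) and the folate enzyme gene Mthfd1 changed by -0.18 ± 0.06 (adjusted p = 0.0319) in dKOEV vs WTEV. Of the 9 genes, 3 rose and 1 fell in dKOEV vs WTEV, 3 rose and 0 fell in dKOMut vs dKOEV, 3 and 0 in dKOPRMT vs dKOEV, 4 and 1 in dKOMut vs WTEV, and 4 and 0 in dKOPRMT vs WTEV. Their median change in dKOPRMT vs dKOEV was 0.12, beside 0.00 for all genes. Of all tested genes 8.44% were called higher and 7% lower in dKOEV vs WTEV. The shares were 4.24% and 7.08% in dKOMut vs dKOEV, and 5.96% and 8.67% in dKOPRMT vs dKOEV. Against WTEV they were 9.41% and 9.97% in dKOMut, and 11% and 12.2% in dKOPRMT.

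Receptors, kinases and exchange factors that trigger the oxidase formed a list of 27. Of these 13 rose and 3 fell in dKOEV vs WTEV, among them the beta-2 integrin chain Itgb2 (0.37 ± 0.04), its partner Itgam (0.27 ± 0.04), the formyl peptide receptor Fpr1 (1.01 ± 0.14) and the Src-family kinase Fgr (0.48 ± 0.07), all higher. With wild-type PRMT1 against dKOEV 3 rose and 4 fell. Fpr1 fell to 9.93 and 8.75 CPM in dKOPRMT, against 30.0 and 30.9 CPM in dKOEV, a change of -1.71 ± 0.15 (adjusted p = 2.9e-11), and Fpr2 changed by -0.86 ± 0.11. Arhgdib, which holds GTPases such as Rac2 in the cytosol, rose by 0.24 ± 0.03 in dKOPRMT vs dKOEV and by 0.15 ± 0.03 in dKOMut vs dKOEV. In dKOMut vs dKOEV 1 of the 27 rose and 2 fell, shares near the 4.24% and 7.08% of all tested genes. The 2 that fell there were Fpr1 (-0.43 ± 0.14, adjusted p = 0.033) and the kinase gene Prkcd (-0.14 ± 0.04, adjusted p = 0.0289). In dKOPRMT vs dKOMut 0 rose and 3 fell, namely Fpr1 (-1.27 ± 0.15), Fpr2 (-0.95 ± 0.11) and Itgam (-0.15 ± 0.04). Both formyl peptide receptor genes thus fell in dKOPRMT vs dKOEV, the comparison in which Ncf1, Ncf4 and Rac2 rose. Against WTEV 12 rose and 5 fell in dKOMut, and 12 rose and 5 fell in dKOPRMT. The median change of the 27 was 0.11 in dKOEV vs WTEV and -0.05 in both dKOMut vs dKOEV and dKOPRMT vs dKOEV, beside 0.00 for all genes. Of all tested genes 8.44% were called higher and 7% lower in dKOEV vs WTEV, and 5.96% and 8.67% in dKOPRMT vs dKOEV. The shares were 1.43% and 1.68% in dKOPRMT vs dKOMut. Against WTEV they were 9.41% and 9.97% in dKOMut, and 11% and 12.2% in dKOPRMT.

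Among 18 transcription factors with described links to these genes or to granulocyte fate, 5 rose and 3 fell in dKOEV vs WTEV, 3 rose and 2 fell in dKOMut vs dKOEV, and 4 rose and 3 fell in dKOPRMT vs dKOEV. Their median changes were 0.05, -0.02 and -0.01 in that order of comparisons, beside 0.00 for all genes. In the same order, 8.44%, 4.24% and 5.96% of all tested genes were called higher and 7%, 7.08% and 8.67% lower. The list holds Hoxa9, which the series title names for the knockout. Its fall in dKOEV vs WTEV (-1.93 ± 0.32, adjusted p = 9.4e-05) is 1 of the 3 counted there and goes with the genotype. Spi1, which encodes PU.1, had 389 and 382 CPM in dKOPRMT, 367 and 372 in dKOMut, 351 and 404 in dKOEV and 326 and 313 in WTEV. It rose in dKOEV vs WTEV by 0.24 ± 0.05 (adjusted p = 0.000264) and was not called between dKO groups. Cebpe, required for granulocyte maturation, had 135 and 135 CPM in dKOPRMT, 111 and 113 in dKOMut, 101 and 98.6 in dKOEV and 65.1 and 66.1 in WTEV. It rose by 0.61 ± 0.06 in dKOEV vs WTEV, by 0.43 ± 0.06 in dKOPRMT vs dKOEV and by 0.27 ± 0.06 in dKOPRMT vs dKOMut (adjusted p = 4.9e-09, 1.8e-06 and 0.00701). Its groups stood in the same order as those of Ncf1. Irf8, a monocyte factor described as an activator of human CYBB, fell in dKOEV vs WTEV by 0.36 ± 0.06 on the log2 scale and rose by 0.50 ± 0.06 in dKOMut vs dKOEV and by 0.29 ± 0.06 in dKOPRMT vs dKOEV. It had 134 and 131 CPM in dKOPRMT, 153 and 153 in dKOMut, 108 and 108 in dKOEV and 139 and 139 in WTEV. Like Cybb it was highest in dKOMut, but it was lowest in dKOEV, whereas Cybb was lowest in WTEV. Irf8 was not called in dKOMut vs WTEV (0.14 ± 0.06, adjusted p = 0.0759). A link of these factors to the subunit levels was not tested.

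Enzymes that remove or use oxidants made a list of 21, of which 20 were tested. In dKOEV vs WTEV 3 rose and 8 fell, with the glutathione synthesis subunit Gclm (0.55 ± 0.06) and glutathione reductase Gsr (0.15 ± 0.04) higher and mitochondrial Sod2 (-0.31 ± 0.06) and Hmox1 (-0.32 ± 0.08) lower. In dKOPRMT vs dKOEV 4 rose and 3 fell. Mpo, which turns the oxidase's product into hypochlorous acid, rose by 0.56 ± 0.03, Gsr by 0.30 ± 0.04 and the peroxidase Gpx1 by 0.25 ± 0.04, while Prdx1 changed by -0.26 ± 0.04. In dKOMut vs dKOEV 4 rose and 2 fell, again with Mpo (0.35 ± 0.03), Gpx1 (0.20 ± 0.04) and Gsr (0.17 ± 0.04) higher and Hmox1 (-0.46 ± 0.08) lower. Mpo (0.20 ± 0.03) and Gsr (0.13 ± 0.04) rose in dKOPRMT vs dKOMut, the 2 members called there. The median change of the 20 was -0.05 in dKOEV vs WTEV, 0.05 in dKOMut vs dKOEV and -0.01 in dKOPRMT vs dKOEV, beside 0.00 for all genes. In the same order, 8.44%, 4.24% and 5.96% of all tested genes were called higher and 7%, 7.08% and 8.67% lower. In dKOPRMT vs dKOMut 3.11% of all tested genes were called in either direction.

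Among markers of the cell types that carry the oxidase, those of neutrophils were higher in sum in the dKO groups, as the subunits were, and those of monocytes and macrophages were not on the CPM scale. The 17 neutrophil markers in the table summed to 178% and 180% of the WTEV mean in dKOPRMT, 181% and 184% in dKOMut and 140% and 145% in dKOEV. The 5 oxidase genes summed to 118% and 117% in dKOPRMT, 117% and 116% in dKOMut and 111% and 112% in dKOEV. Per length they summed to 2529 and 2476 TPM in dKOPRMT, 2440 and 2389 in dKOMut and 2511 and 2495 in dKOEV. In WTEV the sums were 2170 and 2129 TPM. All dKO libraries stood above WTEV on both scales, but the order among the dKO groups depended on the scale. In dKOEV vs WTEV 15 of the 17 neutrophil markers rose and 1 fell, in dKOMut vs dKOEV 12 rose and 0 fell, and in dKOPRMT vs dKOEV 9 rose and 4 fell. In dKOPRMT vs dKOMut 4 rose and 10 fell, where no subunit was called and 1.43% of all tested genes were higher and 1.68% lower. The 17 monocyte and macrophage markers summed to 86.9% and 88.5% of the WTEV mean in dKOPRMT, 95.8% and 89.1% in dKOMut and 92.2% and 97.7% in dKOEV, with 0 higher and 9 lower in dKOEV vs WTEV, 4 higher and 10 lower in dKOMut vs dKOEV and 3 higher and 9 lower in dKOPRMT vs dKOEV. This lower sum depends on the scale. Per length the markers summed to 11660 and 11941 TPM in dKOPRMT, 13058 and 11770 in dKOMut and 11694 and 11970 in dKOEV. In WTEV they summed to 11451 and 10732 TPM. Most single markers were nonetheless lower against WTEV. In dKOMut vs WTEV 2 rose and 11 fell, with a median change of -0.58. In dKOPRMT vs WTEV 3 rose and 11 fell, with a median change of -0.43. Of all tested genes 8.44% were called higher and 7% lower in dKOEV vs WTEV. The shares were 4.24% and 7.08% in dKOMut vs dKOEV, and 5.96% and 8.67% in dKOPRMT vs dKOEV. Against WTEV they were 9.41% and 9.97% in dKOMut, and 11% and 12.2% in dKOPRMT. No marker of either the neutrophil or the monocyte and macrophage list was at 0 in any library. B cells also carry the oxidase, but their 8 markers summed to 9 to 14 CPM in each library, and 4 of them were tested. Mpo stands in both the neutrophil and the oxidant list, and Irf8 in both the monocyte and the transcription factor list. The part of shifts in these cell types in the subunit changes was not tested.

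**Figure D4:**
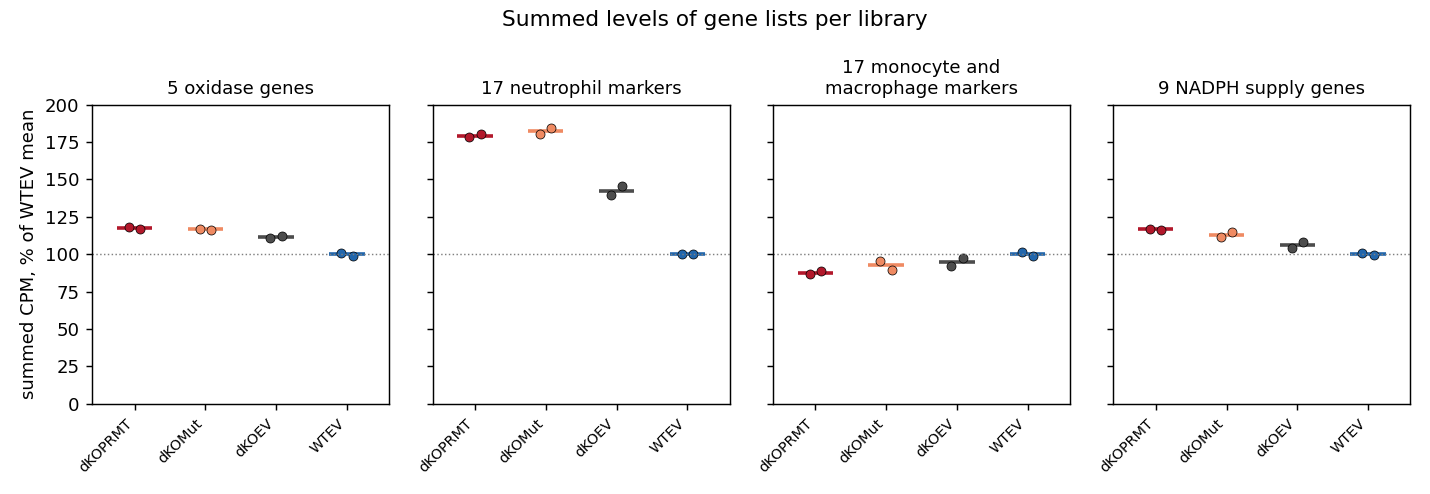
Summed CPM of 4 gene lists in each library, as a percentage of the mean of the 2 WTEV libraries (dotted line), with bars for the mean of 2. The oxidase genes stand at 111% to 118% in the dKO libraries, the neutrophil markers at 140% to 184%, the monocyte and macrophage markers at 86.9% to 97.7% and the NADPH supply genes at 104% to 117%.

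Likeness of pattern was measured as the root mean square difference between log2 CPM values centred on each gene's mean over the 8 libraries, among 9940 other genes whose mean reached 5 CPM. Within the subunits, Ncf1 and Rac2 were the closest pair (0.0413), followed by Ncf4 and Rac2 (0.0544), while Cyba and Ncf1 were farthest apart (0.127). The genes closest to Rac2 were the focal adhesion adaptor Pxn (0.0174), Atp8a1 (0.0306) and Man1c1 (0.0348). Closest to Ncf1 were the myeloid tyrosine kinase Fes (0.0212), Arhgef1 (0.0260) and Lrmp (0.0279). Ncf4 was closest to Eif4g3 (0.0190), to Tkt of the NADPH supply list (0.0205) and to the histone gene H2afx (0.0210). Cyba lay nearest to Bnip2 (0.0229), B3gnt5 (0.0251) and the interferon receptor gene Ifnar1 (0.0263), and Cybb to Phf3 (0.0235), Setd7 (0.0256) and Fam168b (0.0306). The subunits' own root mean square deviations ran from 0.0760 for Cybb to 0.153 for Ncf1, so these likenesses concern small movements.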

How the data were processed

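RNA sequencing counts of 8 libraries in 4 groups of 2 were analysed. Per the labels' protocols, libraries were made from total RNA with a directional kit. Per the submitters' processing notes, Trim Galore 0.6.6, STAR 2.7.6a and featureCounts were used with GRCm38. The strand setting of the counting and the annotation release are stated in neither the labels nor the notes. The authors deposited raw read counts per gene, with each gene's exon length, the sole other measure used.

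The test was edgeR's robust quasi-likelihood fit (version 4.0.16, R 4.3.3) on the 12744 genes that passed filterByExpr, after TMM scaling. Every library entered 1 model with a term for group alone (4 residual degrees of freedom, threshold 0.05 after Benjamini-Hochberg adjustment). The 95% intervals use the moderated degrees of freedom. Alternatives were other scalings and filters, DESeq2 1.42.0, limma 3.58.1 voom, the compared groups alone, a replicate block and each library left out. The steps were tested on simulated data. Replicates differed by more than counting noise in every group (chi-square per degree of freedom 3.59 to 6.38). Exons of the 5 genes overlapped no other gene of the table, although 10 other genes lie within the span of Cybb.

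The 5 genes and the gene lists were chosen with earlier results of these data known. Named were the 5 genes, the partners, up to 4 called members per other list and comparison by smallest p, and the 3 genes most alike each subunit. Further genes that a result turned on were named after their values were seen. Some genes that this rule names are not reported here.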

Additional observations from a re-analysis of the deposited data

How the results depend on the processing

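Of the 30 subunit results (5 genes in 6 comparisons) under 16 alternatives each, 442 of 480 kept direction and side of the threshold, 37 lost their call, 0 gained one and 1 changed sign. DESeq2, limma voom, library totals alone and the filter at 1 CPM changed no subunit call. With the replicate block no subunit call changed. The counts of called genes were then 1952 in dKOEV vs WTEV, 1414 in dKOMut vs dKOEV, 1853 in dKOPRMT vs dKOEV and 403 in dKOPRMT vs dKOMut. Without the block they were 1967, 1442, 1864 and 396. Deviations of same-numbered libraries were correlated at -0.0502 to 0.000489. These correlations over all tested genes showed no pairing by number, but they cannot exclude animals or batches shared by same-numbered libraries. Cyba in dKOPRMT vs dKOEV was -0.1099 with DESeq2 size factors (adjusted p = 0.0515), -0.1106 with no filter (0.06) and -0.1119 in the compared groups alone (0.07). Cyba in dKOMut vs dKOEV was -0.1249 in the compared groups alone (0.0688), and in dKOMut vs WTEV 0.1090 with no filter (0.0545).

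With single libraries left out, the dKOPRMT vs dKOEV values ran from -0.1279 to -0.09556 for Cyba, 0.1345 to 0.1911 for Ncf1, 0.1231 to 0.2072 for Ncf4 and 0.08387 to 0.1550 for Rac2. The dKOMut vs dKOEV values ran from 0.1294 to 0.1685 for Cybb and -0.1413 to -0.1060 for Cyba. Against WTEV, dKOPRMT gave 0.07569 to 0.1262 for Cybb and 0.1044 to 0.1343 for Cyba, and dKOMut 0.09283 to 0.1221 for Cyba and 0.1423 to 0.1784 for Ncf4. Cyba in dKOPRMT vs dKOMut ran from -0.001032 to 0.02824, below 0 only without dKOMut replicate 2. Counts of called genes ran from 1146 to 1975 in dKOEV vs WTEV, 1059 to 1942 in dKOPRMT vs dKOEV, 168 to 537 in dKOPRMT vs dKOMut, 1633 to 2839 in dKOMut vs WTEV and 1965 to 3396 in dKOPRMT vs WTEV. Leaving out a library leaves its group with 1, which is then assumed to vary like the others. With 2408 or more counts per subunit and library, precision is limited more by 2 libraries per group than by depth.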

Other observations

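Marker lists of other blood cell types differed in direction among themselves. The 10 stem and progenitor markers summed to 65.8% and 65.2% of the WTEV mean in dKOPRMT, 73.9% and 75.0% in dKOMut and 90.7% and 91.7% in dKOEV. Of them 0 rose and 7 fell in dKOPRMT vs dKOEV, and 1 rose and 6 fell in dKOMut vs dKOEV. In dKOEV vs WTEV 3 rose and 3 fell, with a median change of 0.27, so the lower sum there does not stand for the list. Of all tested genes 8.44% were higher and 7% lower in that comparison. Megakaryocyte markers summed to 63.7% and 65.5% of the WTEV mean in dKOPRMT, 74.4% and 74.1% in dKOMut and 119% and 114% in dKOEV, but per length they came to 555 and 554 TPM in dKOEV, against 556 and 555 TPM in WTEV. Erythroid markers stood at 36.1% and 37.6% in dKOPRMT, 45.4% and 47.5% in dKOMut and 71.2% and 70.9% in dKOEV. Mast cell and basophil markers stood at 44.5% and 44.2% in dKOPRMT, 70.4% and 68.6% in dKOMut and 61.5% and 60.4% in dKOEV, with 5 of 9 tested markers higher and 0 lower in dKOMut vs dKOEV. Eosinophil markers stood at 102% and 105% in dKOPRMT, 80.6% and 67.9% in dKOMut and 110% and 115% in dKOEV. Of 6 eosinophil markers 1 rose and 0 fell in dKOPRMT vs dKOEV, and 0 rose and 2 fell in dKOMut vs dKOEV. Beside these list counts, 5.96% of all tested genes were higher and 8.67% lower in dKOPRMT vs dKOEV. In dKOMut vs dKOEV the shares were 4.24% and 7.08%. The 9 T and NK cell markers, of which 2 were tested, stood at 116% and 118% in dKOPRMT, 90.7% and 95.6% in dKOMut and 78.8% and 82.7% in dKOEV. In dKOPRMT 5 and 4 of the 9 were at 0. Of the 2 tested only Nkg7 was called in any comparison. It rose by 0.54 ± 0.07 in dKOPRMT vs dKOEV, where the median of the 2 was -0.09, so the sum does not stand for the list. The part of these shifts in the subunit changes was not tested.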
